A study of Homo sapiens with 27 samples.

Results

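Replication-dependent histone genes encode the linker histone H1 and the core histones H2A, H2B, H3 and H4 that package newly copied DNA. The platform annotation of the Human Genome U133 Plus 2.0 array gave 42 of them a probe set of their own, out of 19775 genes with such a probe set, and they were covered by 47 of 54675 probe sets. The members were taken by symbol: H2AC, H2BC, H3C or H4C followed by a number, H1-1 to H1-5, or an older name starting with HIST1, HIST2 or HIST3. Pseudogenes were left out (2 genes). By family these were 5 genes of H1, 8 of H2A, 14 of H2B, 7 of H3 and 8 of H4.

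The values come from 27 arrays of 3 established human cancer cell lines, with 3 arrays in each of 9 groups. PC-3 is a prostate cancer line, SK-OV-3 an ovarian cancer line and WM793B a melanoma line. In each line, control cells stayed at 21% oxygen for 72 h, cells in chronic hypoxia spent 72 h at 1% oxygen, and cells in cycling hypoxia passed through stretches of 4 h or 12 h at 1% oxygen, each followed by 4 h at 21% oxygen, with the last stretch at 21%. Each line grew in a medium of its own (RPMI, McCoy's and Tu, the last with insulin and CaCl2 and all with fetal bovine serum), so medium and line cannot be told apart. Each line is a single established line, and the labels name the 3 arrays of a group biological replicates without saying how the cultures were separated, so p-values measure the spread between these samples. The comparisons asked how chronic and cycling hypoxia changed the levels, and both were set against the same control arrays.

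These genes sit in clusters and are transcribed mainly in S phase, when the cell needs histones for the new DNA. NPAT, switched on by cyclin E and CDK2, drives their transcription. Their main transcripts carry no poly(A) tail. They end in a stem-loop that SLBP binds, and the U7 snRNP with its proteins LSM10 and LSM11, ZNF473 and the CPSF cleavage factors cuts the transcript behind it. Some of the genes also give polyadenylated transcripts. Standard labelling for this type of array starts from an oligo(dT) primer, which pairs with poly(A) tails, and the labels say only that the maker's instructions were followed. A higher value can therefore be more transcript or a larger share of it with a tail, and these arrays cannot tell the 2 apart. Since each RNA came from a whole culture, a changed share of cells in S phase and a changed amount of RNA per cell cannot be told apart either.

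The starts of these genes carry short motifs that set the family apart, so the 250 bases before the RefSeq start are shown for the genes that the results turn on. The windows are in build GRCh38.p14, 5′ to 3′ on the strand of the gene, with matches on either strand in capitals: CCAAT for the CCAAT box, TATAAA for the TATA box, ATTTGCAT for the octamer and AAACACA for the H1 box. The linker histone gene H1-2 (chr6:26056471-26056720, minus strand), the H2B gene H2BC5 (chr6:26157871-26158120, plus strand), the H2A gene H2AC6 (chr6:26123922-26124171, plus strand), the H2B gene H2BC12 (chr6:27146859-27147108, minus strand) and the H2A gene H2AC25 (chr1:228457874-228458123, minus strand) read:
H1-2: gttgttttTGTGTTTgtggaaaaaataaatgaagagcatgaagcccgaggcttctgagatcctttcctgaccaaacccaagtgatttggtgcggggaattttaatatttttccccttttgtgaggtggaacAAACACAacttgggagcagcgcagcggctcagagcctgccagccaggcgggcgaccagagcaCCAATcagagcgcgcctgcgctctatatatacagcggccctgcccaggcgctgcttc
H2BC5: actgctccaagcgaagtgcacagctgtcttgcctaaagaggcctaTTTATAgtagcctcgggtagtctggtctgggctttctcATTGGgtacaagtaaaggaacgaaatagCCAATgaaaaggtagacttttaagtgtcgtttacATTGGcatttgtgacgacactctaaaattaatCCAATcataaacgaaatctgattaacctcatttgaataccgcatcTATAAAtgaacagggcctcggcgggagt
H2AC6: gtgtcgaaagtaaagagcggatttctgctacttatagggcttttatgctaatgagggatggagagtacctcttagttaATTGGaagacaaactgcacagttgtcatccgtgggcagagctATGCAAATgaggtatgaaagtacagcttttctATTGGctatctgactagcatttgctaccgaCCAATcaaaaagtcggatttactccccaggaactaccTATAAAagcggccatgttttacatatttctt
H2BC12: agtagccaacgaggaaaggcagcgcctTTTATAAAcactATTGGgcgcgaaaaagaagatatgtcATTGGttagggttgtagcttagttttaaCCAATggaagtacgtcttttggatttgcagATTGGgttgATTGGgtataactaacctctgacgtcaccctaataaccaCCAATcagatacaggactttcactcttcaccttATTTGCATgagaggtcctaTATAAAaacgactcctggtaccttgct
H2AC25: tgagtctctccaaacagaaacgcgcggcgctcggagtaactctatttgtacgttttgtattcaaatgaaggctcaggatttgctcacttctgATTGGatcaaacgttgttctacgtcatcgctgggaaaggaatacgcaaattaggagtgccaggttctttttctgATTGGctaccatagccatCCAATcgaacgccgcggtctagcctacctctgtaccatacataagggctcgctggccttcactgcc
The printed window of H2AC6 is shared with the H2B gene H2BC4, which is transcribed the other way from a start 246 bases away. H2AC25 had 3 CCAAT matches and no match to the other motifs, and H1-2 had 2 matches to the H1 box. In H2BC12, a TATAAA match on each strand overlapped in 1 stretch. No matches of different motifs overlapped.

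A promoter was found in the RefSeq table for 39 of the 42 genes. CCAAT stood in 34 of the 39 windows (87.2%) against 33.0% of all 27305 promoters of that length, TATAAA in 27 (69.2% against 11.1%), ATTTGCAT in 16 (41.0% against 1.66%) and AAACACA in 5 (12.8% against 4.95%). The octamer was found in 6 of 8 H2A and 10 of 13 H2B windows and in no window of H1, H3 or H4. The H1 box was found in 5 of 5 H1 windows and in none of the other families. A match describes the letters and is not a measured binding site.

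The noise level of the arrays was taken as 5 on the linear scale, which is 2.32 in log2 and close to the lowest deposited value of 2.28. A group mean above it was found for 36 of the 42 genes. A log2 value of 5 was used here as a stricter limit for a bright gene. Of the 42 genes, 17 had a group mean above it in at least 1 group: 1 of 5 for H1, 4 of 8 for H2A, 8 of 14 for H2B, 1 of 7 for H3 and 3 of 8 for H4. All 17 were above it in PC-3 cells, 7 in SK-OV-3 cells and 8 in WM793B cells. The other 25 genes, among them 4 of the 5 H1 genes and 6 of the 7 H3 genes, had means between 2.28 and 4.66 in every group. Of these 25, 19 were dim but above the noise level in some group, and 6 were never above it, which does not show that their transcripts were absent. Of the genes above 5, 10 lay in the first histone cluster of chromosome 6 (23 genes, 26017032 to 26285534) and 4 in its second cluster (15 genes, 27132316 to 27893891). In RefSeq, 4 of the 17 genes above 5 (H2BC4, H2BC5, H2BC12 and H2BC21, the last one chosen after its values were seen) span more than 1000 bases, and 1 of the other 25 does. The longest is H2BC5 with 13229 bases and 2 RefSeq mRNAs, while H2BC11 spans 480 bases.

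**Figure D1:**
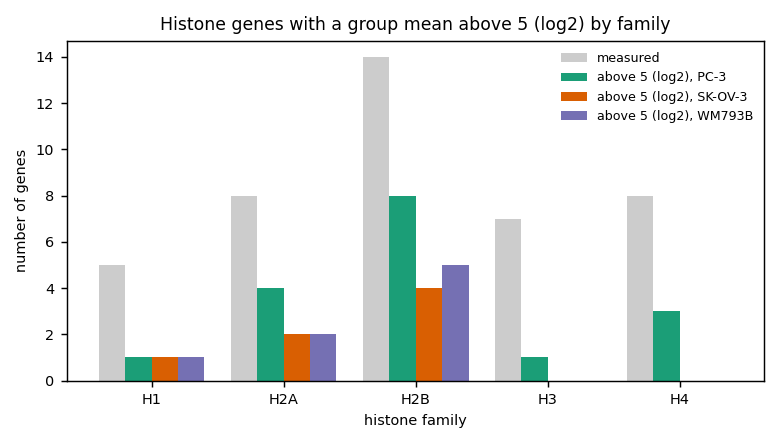
Number of histone genes (vertical axis) measured in each family and number with a group mean above 5 (log2) in each cell line. In PC-3 cells 8 of 14 H2B genes were above it, and no H3 or H4 gene passed it in SK-OV-3 or WM793B cells.

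The arrays were alike in range, with 32.3% to 34.0% of probe sets above 5 and a lowest correlation of 0.994 within a group. Epithelial genes (KRT8, KRT18, KRT19, EPCAM, CDH1) were high in SK-OV-3 and PC-3 cells and below 5 in WM793B cells, and PAX8 and ERBB2 were highest in SK-OV-3 cells. SOX10 and S100B were above 5 in WM793B cells alone of the 3 lines. MITF, a melanocyte factor, did not follow the labels, with 9.26 in control SK-OV-3 and 8.38 in control WM793B cells, nor did WT1, listed as an ovarian marker, with 4.00 and 6.80. The pigment cell genes PMEL, MLANA and TYR stayed at the lowest value in WM793B cells, so the melanoma label rests here on SOX10 and S100B. Leukocyte and red cell genes (PTPRC, CD3E, CD14, HBB) were at or near the lowest value in all groups. Of 8 known hypoxia targets measured, chronic hypoxia raised 7 in PC-3 cells, 7 in WM793B cells and 8 in SK-OV-3 cells. Of all genes 13.3%, 8.50% and 11.5% rose in the same order. The WM793B array of chronic hypoxia replicate 3 stood apart from the other 2 of its group in the histone and replication genes, as given below.

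In PC-3 cells, chronic hypoxia raised most histone genes that were bright in this line. Of the 42 genes 13 rose (background, 13.3% of all genes) and 2 fell (22.6%), by limma's moderated test with an adjusted p under 0.05 over all probe sets. Among the 15 genes with a PC-3 mean above 5 over all 9 arrays, 10 rose against 26.0% of all genes above 5, and 1 fell against 42.3%. The median log2 difference of the 15 was 0.91, beside -0.15 for all genes above 5, and 14 of the 15 were positive. Those that rose were the linker gene H1-2, the H2A genes H2AC6, H2AC8, H2AC14, H2AC15 and H2AC25, the H2B genes H2BC4, H2BC5, H2BC6, H2BC9, H2BC11 and H2BC21, and the H4 gene H4C4. H2AC15 and H4C4 stayed below 5. H2AC14, H2BC5, H2BC6 and H2BC9 were read by probe sets marked _x_at, whose probes may bind several transcripts, so their rises may share signal. H2BC12 and H3C6 fell, the latter below 5. With each array centred on its median, 14 of the 42 rose and 9 fell, and of the 15 genes above 5, 11 rose and 1 fell. The difference between 3′ and 5′ probe sets of ACTB, a sign of RNA quality, was 0.68 to 0.74 in chronic hypoxia, 0.82 to 0.86 in control and 0.75 to 0.86 in cycling hypoxia in these cells, and its part in the results was not tested.

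H1-2, a linker histone that binds DNA between nucleosomes, read 10.39, 10.68 and 10.45 (log2) in control PC-3 cells, 12.28, 12.37 and 12.36 in chronic hypoxia, and 11.71, 11.73 and 11.60 in cycling hypoxia. The 3 groups did not overlap. H1-2 rose 3.56-fold in chronic hypoxia (log2 difference 1.83 ± 0.08 SE, adjusted p = 1.09e-05) and 2.25-fold in cycling hypoxia (1.17 ± 0.08, adjusted p = 0.00018). Cycling hypoxia was 1.58-fold below chronic hypoxia (adjusted p = 0.00298).

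H2BC5, an H2B core histone gene, read 10.10, 10.09 and 10.14 in control, 11.55, 11.51 and 11.45 in chronic and 10.69, 10.61 and 10.65 in cycling hypoxia. Every array of chronic hypoxia was above every array of cycling hypoxia, and these above every control. H2BC5 rose 2.63-fold in chronic (1.4 ± 0.03, adjusted p = 1.74e-06) and 1.46-fold in cycling hypoxia (0.54 ± 0.03, adjusted p = 0.000118), the latter lost with all 27 arrays in 1 fit (adjusted p = 0.15). The second H2BC5 probe set rose 3.00-fold and 1.67-fold (adjusted p = 0.000211 and 0.0127). Both can take signal from other H2B genes, since their names end in _x_at, the maker's mark for probes that may bind several transcripts.

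H2AC25, an H2A gene on chromosome 1, read 8.52, 8.64 and 8.60 in control, 9.67, 9.59 and 9.66 in chronic and 8.73, 8.84 and 8.79 in cycling hypoxia. It rose 2.07-fold in chronic hypoxia (1.05 ± 0.04, adjusted p = 7.22e-06). In cycling hypoxia the rise was 1.15-fold (0.20 ± 0.04, adjusted p = 0.0168), and it was no longer called without cycling hypoxia replicate 2 or replicate 3, or with all 27 arrays in 1 fit (limma adjusted p = 0.4). Its second, dim probe set read 2.28 to 2.74 on all arrays.

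H2BC9, another H2B gene read by an _x_at probe set, rose 2.15-fold in chronic hypoxia from 8.50 ± 0.11 to 9.61 ± 0.03 (SD, n = 3, limma adjusted p = 3.06e-05). H2BC4 rose 2.04-fold, from 8.24 ± 0.20 to 9.27 ± 0.08 (SD, n = 3, limma adjusted p = 0.00126). H2AC8 rose 2.30-fold, from 5.70 ± 0.24 to 6.90 ± 0.14 (SD, n = 3, limma adjusted p = 0.000504). All 3 were also called higher in cycling hypoxia, by 1.19-fold, 1.44-fold and 1.87-fold, with adjusted p values of 0.0376, 0.042 and 0.00372. The calls of H2BC9 and H2BC4 in cycling hypoxia were lost when most single arrays were left out (7 and 8 of 9), while H2AC8 stayed called whichever array was left out.

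H2BC11, an H2B gene of the second cluster, sat at 2.28, 2.28 and 2.33 in control, at the lowest value of the table, and read 5.05, 4.81 and 5.37 in chronic and 3.69, 2.68 and 3.16 in cycling hypoxia. Chronic hypoxia was above the other groups on every array. As the control mean lay below the noise level of 2.32, the rise is given as at least 6.75-fold against that level (fitted log2 difference 2.78 ± 0.26, adjusted p = 0.000267).

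H2AC6, an H2A gene that shares its promoter stretch with H2BC4, was already high in control PC-3 cells and moved little, by 1.36-fold, from 11.18 ± 0.09 to 11.63 ± 0.01 (SD, n = 3, limma adjusted p = 0.00384). H2BC12, the gene with 6 CCAAT matches, went the other way. It read 12.56, 12.70 and 12.55 in control, 12.40, 12.44 and 12.38 in chronic and 12.43, 12.41 and 12.39 in cycling hypoxia, a fall of 1.15-fold and 1.14-fold (adjusted p = 0.0114 and 0.0201). The second of these calls was lost when any 1 of the 3 cycling arrays was left out. H2BC12L, a gene on chromosome 21 named for its likeness to H2BC12 and read by an _x_at probe set, overlapped between control (11.02 to 11.06) and chronic hypoxia (11.05 to 11.09). In cycling hypoxia it read 10.70 to 10.77 and was 1.23-fold lower than control (-0.29 ± 0.02, adjusted p = 0.000254). In 1 fit of all 27 arrays, which pools the spread of the 3 lines, the calls of H2AC6 and H2BC12 in chronic hypoxia (adjusted p = 0.23 and 0.394) and of H2BC12 and H2BC12L in cycling hypoxia (0.532 and 0.301) were lost.

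Of the genes outside the rule for naming, the following values were chosen after they were seen. H2BC21, an H2B gene on chromosome 1, read 8.23, 8.77 and 8.50 in control PC-3 cells and 9.41, 9.60 and 9.47 in chronic hypoxia, a 1.99-fold rise (adjusted p = 0.00132). H2BC6, read by an _x_at probe set, rose 1.88-fold with 9.10 to 9.14 in control and 9.99 to 10.07 in chronic hypoxia (adjusted p = 5.72e-05). Neither group pair overlapped.

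H4C8, an H4 gene, did not overlap between groups, with 8.17 to 8.52 in control and 8.78 to 9.14 in chronic hypoxia, but did not pass (1.53-fold, adjusted p = 0.0511). Its second probe set, brighter in PC-3 cells and dimmer over all 27 arrays, did (log2 difference 0.47, adjusted p = 0.0103). H3C2, the H3 gene above 5, was 1.45-fold higher without passing the test (adjusted p = 0.147). H4C5 was 4.36 ± 0.69 in control and 5.66 ± 0.11 in chronic hypoxia (SD, n = 3), a difference of 1.31 ± 0.69 that did not pass limma's test (adjusted p = 0.278).

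**Figure D2:**
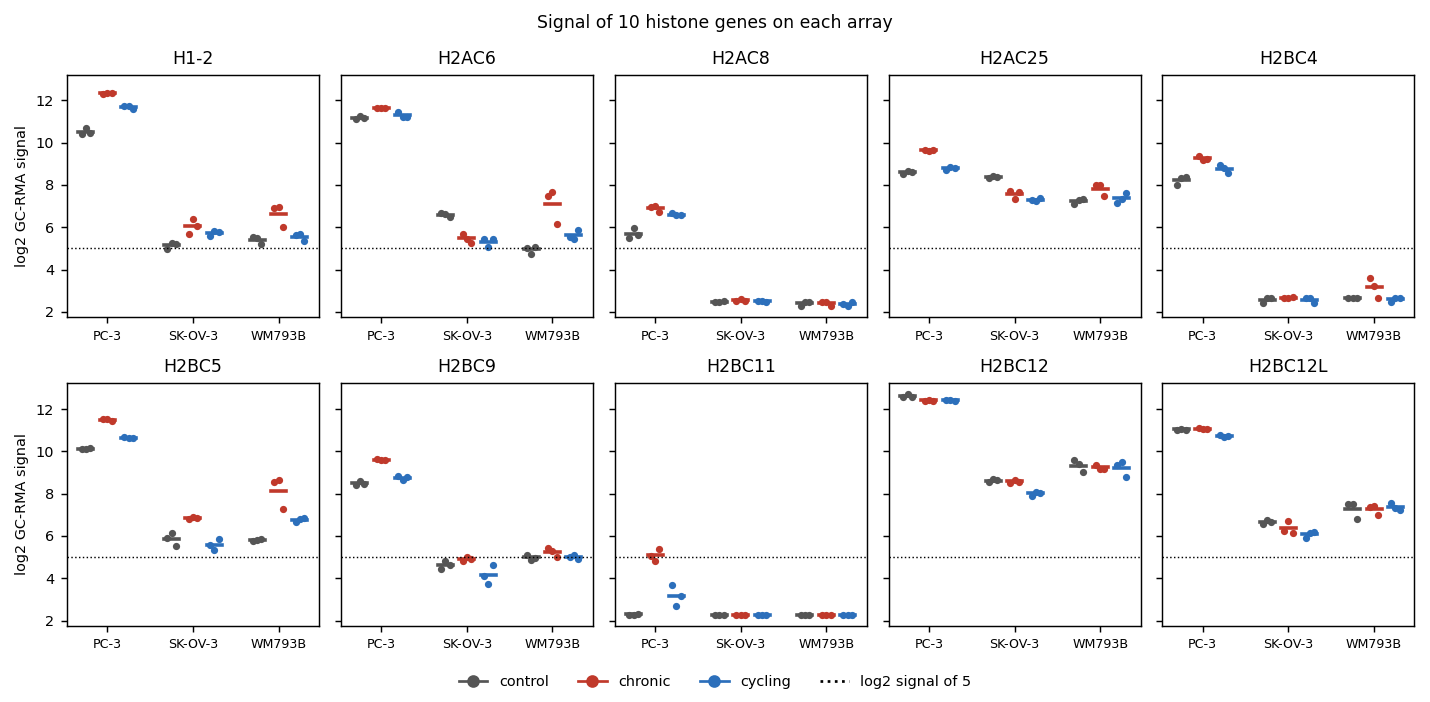
Log2 GC-RMA signal (vertical axis) of 10 histone genes on each of the 27 arrays, by cell line and condition. Points are arrays, bars are means of 3, and the dotted line is a log2 value of 5. In PC-3 cells the arrays of chronic hypoxia lay above all controls for 8 of the 10 genes, while H2BC12 lay below and H2BC12L overlapped. Most of the 10 genes had been chosen for a large called change in these data. The count of 8 follows in part from that choice and is not a test.

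Cycling hypoxia gave fewer calls in PC-3 cells. Of the 42 genes 7 rose (background 11.1%) and 2 fell (13.2%). Among the 15 genes above 5 in PC-3 cells the 7 compare with 22.6% of all genes above 5 and the 2 with 25.0%. The median of the 15 was 0.24 beside -0.02 for all genes above 5. Set directly against chronic hypoxia, 11 genes were lower in cycling hypoxia (background 5.58%) and 1, H3C6, was higher (15.0%), at levels below 5. Of the 15 genes above 5, 9 were lower (10.9%) and none was higher (30.3%), with a median of -0.50 beside 0.13 for all genes above 5. At an unadjusted p under 0.05, limma gave 2 of the 42 genes higher and 15 lower. The share of all genes at that unadjusted limit is not given, so these 2 counts have no background. With each array centred on its median, 8 of the 42 were higher and 14 lower, and of the 15 genes above 5, none was higher and 10 were lower. The mean of the 18S ribosomal control probe sets read 7.25 to 9.73 in these cycling arrays and 10.15 to 10.38 in the controls. It ran from 10.28 to 12.65 over the SK-OV-3 arrays and from 4.89 to 8.16 over the WM793B arrays. Its part in the results was not tested.

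In WM793B cells only 8 histone genes had a mean above 5, and 3 of them rose in chronic hypoxia (3 of 42, background 8.50%, and 3 of 8 against 16.5% of genes above 5). None fell, against 10.9% of all genes and 20.7% of those above 5, and at an unadjusted p under 0.05 limma also gave 0 lower. Both shares are for the adjusted p. The 3 were H2BC5, H2AC6 and H1-2. The median log2 difference of the 8 genes was 0.43, beside -0.05 for all genes above 5.

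H2BC5 read 5.76, 5.79 and 5.85 in control WM793B cells, 8.54, 8.65 and 7.27 in chronic and 6.65, 6.80 and 6.86 in cycling hypoxia. Replicate 3 of chronic hypoxia was the lowest of its group, and still above every other array. H2BC5 rose 5.12-fold in chronic hypoxia (2.36 ± 0.35, adjusted p = 0.00609), and 6.95-fold without replicate 3 (2.80 ± 0.07, adjusted p = 0.000139). That array was left out because its histone and replication values lay nearer the control. Larger differences and smaller p-values without it, here and below, follow from this choice and add no support. The second H2BC5 probe set was 1.70-fold higher in chronic hypoxia and did not pass the test (adjusted p = 0.113).

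H2AC6 read 5.04, 4.72 and 5.08 in control, 7.50, 7.67 and 6.17 in chronic and 5.54, 5.46 and 5.86 in cycling hypoxia. The rise in chronic hypoxia was 4.49-fold (2.17 ± 0.39, adjusted p = 0.0128). Without chronic hypoxia replicate 3 the log2 difference was 2.64 ± 0.17 (adjusted p = 0.000823), and without control replicate 2 it was no longer called (adjusted p = 0.0514). H2BC4, across the shared promoter stretch, read 3.62, 3.21 and 2.63 in chronic hypoxia and 2.63 to 2.64 in control, all dim.

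H1-2 read 5.55, 5.49 and 5.19 in control, 6.90, 6.95 and 6.02 in chronic and 5.65, 5.66 and 5.34 in cycling hypoxia. It rose 2.31-fold (1.21 ± 0.26, adjusted p = 0.0261), and the call was lost when any of 6 single arrays was left out, while without chronic hypoxia replicate 3 the rise was 2.85-fold (adjusted p = 0.0025).

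H2AC25 was 7.23 ± 0.12 in control and 7.83 ± 0.29 in chronic hypoxia (SD, n = 3) and did not pass limma's test (adjusted p = 0.0812). It did without chronic hypoxia replicate 3 (1.70-fold, adjusted p = 0.0253). H2BC12 had 9.33 ± 0.28, 9.24 ± 0.12 and 9.21 ± 0.39 in control, chronic and cycling hypoxia (SD, n = 3), and its groups overlapped.

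In cycling hypoxia no histone gene was called in WM793B cells against control (background 3.43% higher and 2.99% lower, and 6.88% and 5.51% among genes above 5) or against chronic hypoxia (2.88% and 2.13%, and 5.87% and 4.12% among genes above 5). At an unadjusted p under 0.05, limma gave 1 gene higher (H2BC5) and 1 lower than control, and 6 lower than chronic hypoxia. The shares above are for the adjusted p, so these unadjusted counts have no background. H2BC5 was 1.96-fold above control with every cycling array above every control (0.97 ± 0.35, adjusted p = 0.231), while its second probe set differed by 0.02 ± 0.25. Without chronic hypoxia replicate 3 the 1.96-fold H2BC5 difference was called (limma adjusted p = 0.00371). In that fit 5 genes were called lower in cycling than in chronic hypoxia. They were H2BC5, H2AC6, H1-2, H2BC4 and, chosen after its values were seen, H4C8, the last 2 below 5 in this line. The share of all genes called in that fit is not given, so the 5 have no background.

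In SK-OV-3 cells the histone genes split. Of the 42 genes 2 rose in chronic hypoxia (H2BC5 and H1-2, background 11.5%) and 2 fell (H2AC6 and H2AC25, background 13.6%). Among the 7 genes above 5 in the line, 2 rose against 21.1% and 2 fell against 26.8% of genes above 5, with a median of -0.06 beside -0.07. These shares stand on 7 genes and lie near the background.

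H2AC6 read 6.65, 6.64 and 6.49 in control SK-OV-3 cells, 5.70, 5.45 and 5.25 in chronic and 5.43, 5.08 and 5.45 in cycling hypoxia. All hypoxic arrays were below all controls. The fall was 2.19-fold in chronic (-1.13 ± 0.15, adjusted p = 0.00254) and 2.42-fold in cycling hypoxia (-1.28 ± 0.15, adjusted p = 0.00262). 

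H2AC25 read 8.32, 8.43 and 8.38 in control, 7.70, 7.32 and 7.67 in chronic and 7.28, 7.26 and 7.37 in cycling hypoxia, again with all hypoxic arrays below the controls. It fell 1.75-fold (-0.81 ± 0.10, adjusted p = 0.00222) and 2.10-fold (-1.07 ± 0.10, adjusted p = 0.00127). 

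H2BC5 rose from 5.91, 6.14 and 5.53 in control to 6.80, 6.88 and 6.85 in chronic hypoxia, a 1.98-fold change (adjusted p = 0.0121), and read 5.59, 5.32 and 5.85 in cycling hypoxia, where it overlapped the control. Cycling hypoxia was 2.39-fold below chronic hypoxia (-1.26 ± 0.18, adjusted p = 0.00785). Its second probe set did not pass for chronic hypoxia against control (1.28-fold, adjusted p = 0.336). H1-2 was 5.15 ± 0.15 in control and 6.04 ± 0.37 in chronic hypoxia (SD, n = 3), 1.85-fold higher by limma (adjusted p = 0.0201), and lost the call when any of 4 single arrays was left out.

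H2BC12 was lower in cycling hypoxia than in both other groups. It read 8.53, 8.69 and 8.64 in control, 8.51, 8.66 and 8.56 in chronic and 7.90, 8.10 and 8.03 in cycling hypoxia. It was 1.53-fold below control (-0.61 ± 0.07, adjusted p = 0.00256) and 1.48-fold below chronic hypoxia (-0.57 ± 0.07, adjusted p = 0.0041), and the control and chronic groups overlapped. In cycling hypoxia the 3 genes that fell were H2AC6, H2AC25 and H2BC12 (3 of 42, background 7.89%, and 3 of 7 against 15.3% of genes above 5). None rose (background 8.53%, and 16.6% of genes above 5), although at an unadjusted p under 0.05 limma gave 2 genes higher. Against chronic hypoxia, H2BC5 and H2BC12 were lower (2 of 42, background 6.49%, and 2 of 7 against 12.1% of genes above 5). None was higher (8.53%, and 17.2% of genes above 5), and limma gave 0 higher also at an unadjusted p under 0.05. All shares here are for the adjusted p, and the unadjusted counts have no background. With each array centred on its median the balance turned, with 13 of the 42 genes higher and 4 lower, but none of the 13 was among the 7 genes above 5, of which 3 were lower.

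**Figure D3:**
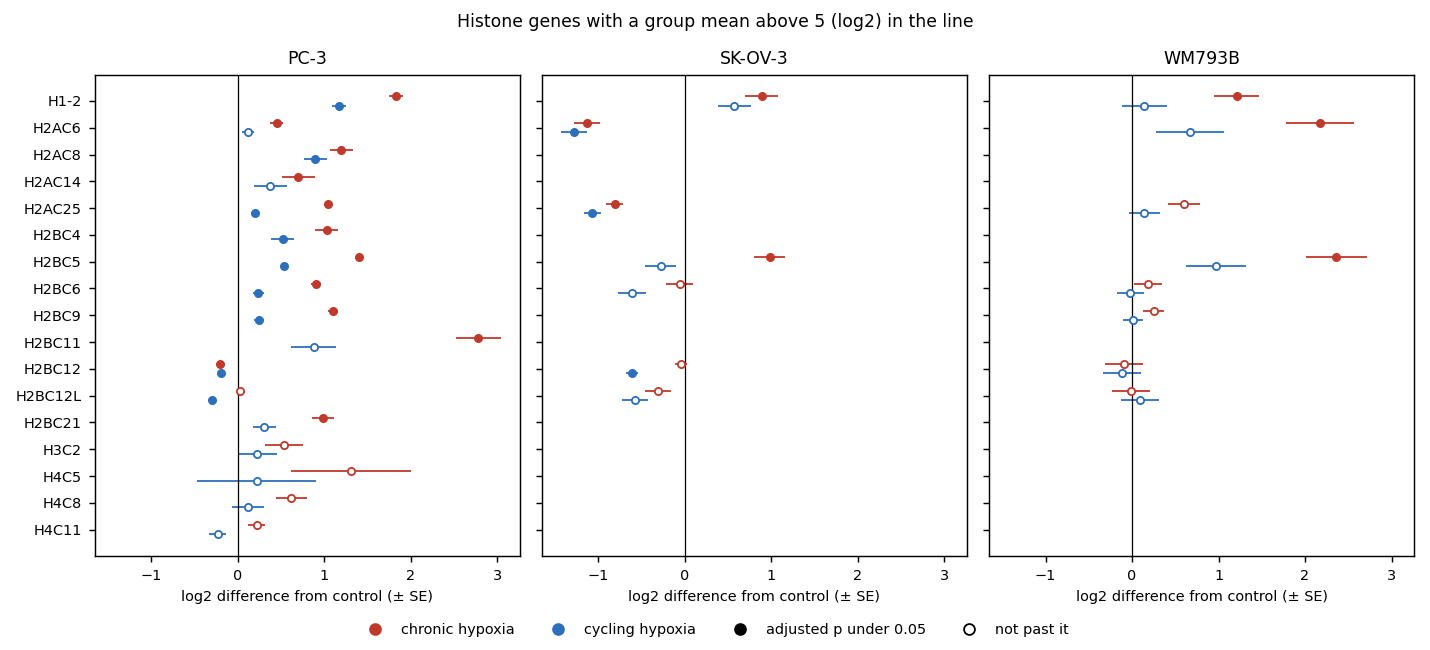
Log2 difference from control with its standard error (horizontal axis) for the histone genes with a group mean above 5 in the line. Filled points passed an adjusted p of 0.05 and open points did not. H2AC6 and H2AC25 lay on opposite sides of 0 in chronic hypoxia: at 0.45 and 1.05 in PC-3 cells and at -1.13 and -0.81 in SK-OV-3 cells.

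The difference in response between the lines was tested in 1 fit of all 27 arrays. For chronic hypoxia 15 of the 42 genes differed between lines, where 41.5% of all genes did, and for cycling hypoxia 8 did, where 28.3% of all genes did. Among the 9 histone genes with a mean above 5 over all 27 arrays, 7 differed for chronic hypoxia, against 69.1% of all genes above 5, and 6 for cycling hypoxia, against 48.6%. These shares are near the background, so what follows concerns single genes. The chronic response of H2AC6 in SK-OV-3 cells lay 1.58 ± 0.36 (log2, SE) below that in PC-3 cells (limma adjusted p = 0.00222), and that in WM793B cells 3.30 ± 0.36 above that in SK-OV-3 cells (adjusted p = 9.19e-07). The response of H2AC25 was 1.86 ± 0.18 lower in SK-OV-3 than in PC-3 cells (adjusted p = 1.34e-07). For H2BC5, WM793B cells exceeded SK-OV-3 cells by 1.37 ± 0.33 (adjusted p = 0.00433). The excess over PC-3 cells, 0.96 ± 0.33, did not pass (adjusted p = 0.0554). Both values rest on 1 H2BC5 probe set. The second gave chronic log2 differences of 0.76 in WM793B, 0.35 in SK-OV-3 and 1.58 in PC-3 cells, so PC-3 cells came first there. The response of H2BC12 did not pass the F-test over the 3 lines in chronic (adjusted p = 0.923) or cycling hypoxia (adjusted p = 0.168).

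In chronic hypoxia the genes of DNA replication went the opposite way to most bright histone genes in PC-3 cells and to the 3 that rose in WM793B cells. Of 31 genes of the replication machinery (MCM helicase subunits, GINS, polymerases, clamp loaders and nucleotide synthesis), 29 fell in chronic hypoxia in PC-3 cells and none rose, with a median log2 difference of -1.36, beside 0 for all genes. In WM793B cells 25 fell and none rose (median -2.12), and in SK-OV-3 cells 1 fell and 5 rose (median 0.06). PCNA, the sliding clamp of the polymerases, fell from 11.56 to 9.97 in PC-3 cells (limma adjusted p = 2.64e-05) and from 11.52 to 9.19 in WM793B cells (adjusted p = 5.1e-05). In SK-OV-3 cells it was 10.15 in control and 9.76 in chronic hypoxia (adjusted p = 0.44). In cycling hypoxia 23 replication genes fell in PC-3 cells, 8 in WM793B cells and none in SK-OV-3 cells, where 2 rose. None rose in PC-3 or WM793B cells. Of all genes 13.2%, 2.99% and 7.89% fell and 11.1%, 3.43% and 8.53% rose in PC-3, WM793B and SK-OV-3 cells. Among genes above 5 in the line, 25.0%, 5.51% and 15.3% fell in cycling hypoxia in that order. In chronic hypoxia 42.3%, 20.7% and 26.8% of genes above 5 fell, and 21.1% rose in SK-OV-3 cells.

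On single arrays, the mean of the 15 PC-3 histone genes lay 0.77 to 0.82 (log2) above the control mean in chronic hypoxia, and that of the replication list 1.29 to 1.41 below it. In cycling hypoxia the same means lay 0.23 to 0.39 above and 0.76 to 0.81 below. In WM793B cells the 8 histone genes lay 1.06, 1.05 and 0.39 above control in chronic hypoxia replicates 1, 2 and 3, and the replication list 2.29, 2.31 and 1.33 below it. Replicate 3 was thus nearer the control in both lists, while its hypoxia targets, at 2.44, were as far from control as the 2.36 and 2.26 of the others. Without that array, left out for these same values, 29 replication genes fell in chronic and 22 in cycling hypoxia. The share of all genes that fell in that fit is not given. In SK-OV-3 cells the 7 histone genes lay between -0.13 and 0.01 in chronic hypoxia and between -0.64 and -0.42 in cycling hypoxia, with the replication list between -0.06 and 0.49 and between -0.04 and 0.19. The part of cell cycle state in the histone values was not tested.

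**Figure D4:**
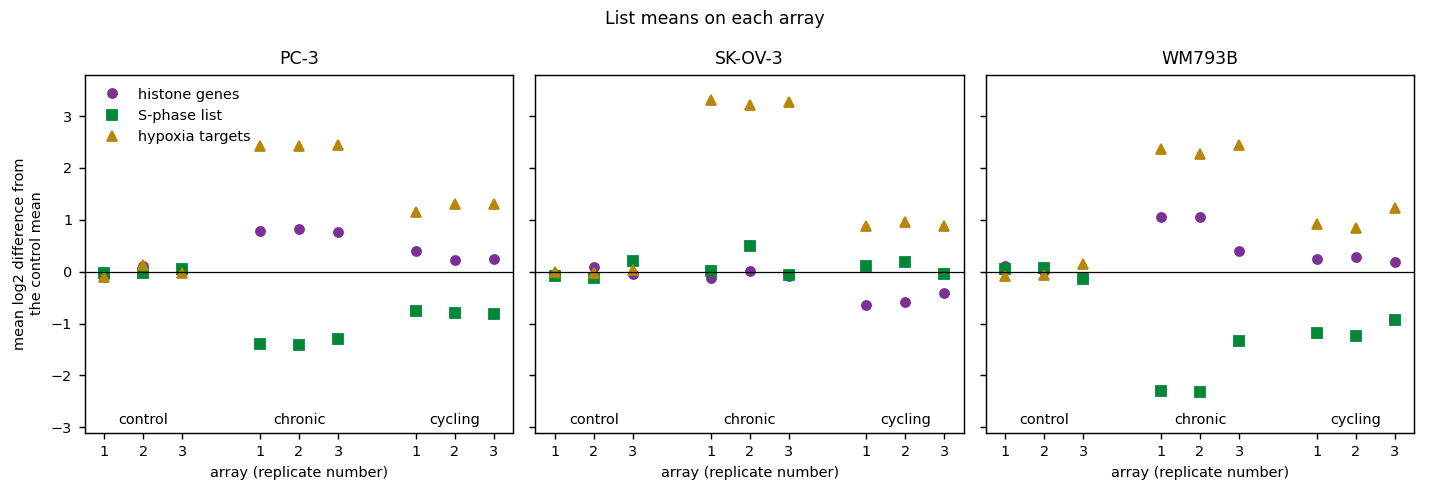
Mean log2 difference from the control mean of the line (vertical axis) on each array (horizontal axis, replicate number) for the histone genes above 5 in that line (15, 7 and 8 genes), the 31 replication genes and 8 hypoxia targets. In WM793B and PC-3 cells the means of histone and replication genes lay on opposite sides of 0 in both kinds of hypoxia. In WM793B cells only 3 of the 8 histone genes were called higher in chronic hypoxia and none in cycling hypoxia. WM793B chronic hypoxia replicate 3 lay nearer to 0 than the other 2 in both lists.

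Among the factors that make and process histone transcripts, more fell than rose in chronic hypoxia in each line. Of 28 genes measured, 17 fell and 2 rose in chronic hypoxia in PC-3 cells (median -0.39), 11 fell and 3 rose in SK-OV-3 cells (-0.28), and 14 fell and 2 rose in WM793B cells (-0.39). Of all genes, 22.6% fell and 13.3% rose in PC-3 cells, 13.6% and 11.5% in SK-OV-3 cells, and 10.9% and 8.50% in WM793B cells. Among genes above 5 in the line, 42.3%, 26.8% and 20.7% fell and 26.0%, 21.1% and 16.5% rose in the same order. CCNE2, a cyclin E that acts on NPAT through CDK2, fell in WM793B cells from 7.81 to 3.17 (-4.64 ± 0.32, limma adjusted p = 0.000453) and in PC-3 cells from 7.88 to 5.38 (adjusted p = 3.12e-05). SLBP, which binds the stem-loop, moved little: its log2 difference was -0.19 in PC-3 cells (adjusted p = 0.0122), -0.32 in SK-OV-3 cells (adjusted p = 0.0692) and -0.15 in WM793B cells (adjusted p = 0.182), and only the first passed the test.

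The U7 particle split between its proteins. LSM10 fell in all 3 lines in chronic hypoxia, with log2 differences of -0.37 in WM793B, -1.57 in SK-OV-3 and -1.26 in PC-3 cells (adjusted p = 0.0439, 0.000105 and 2.01e-05). LSM11 rose in PC-3 cells by 0.66 ± 0.09 (adjusted p = 0.00146) and in SK-OV-3 cells by 1.49 ± 0.11 (adjusted p = 0.00025), and in WM793B cells its difference of 0.51 ± 0.14 did not pass (adjusted p = 0.0663). CPSF3, the nuclease that cuts the transcript, fell as well, with differences of -0.76, -0.91 and -1.13 in the same order (adjusted p = 0.00927, 0.00317 and 1.51e-05). NPAT passed in WM793B cells alone, falling by 0.51 (adjusted p = 0.00891), with -0.32 in PC-3 cells (adjusted p = 0.0542) and 0.24 in SK-OV-3 cells (adjusted p = 0.569). In cycling hypoxia 12 of the 28 genes fell and 2 rose in PC-3 cells, and 7 fell and 6 rose in SK-OV-3 cells. In WM793B cells 3 fell and none rose. In the same order 13.2%, 7.89% and 2.99% of all genes fell and 11.1%, 8.53% and 3.43% rose. Among genes above 5, 25.0%, 15.3% and 5.51% fell and 22.6%, 16.6% and 6.88% rose.

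Of 12 genes that act in polyadenylation of mRNA in general, 7 fell and 2 rose in chronic hypoxia in PC-3 cells, 2 fell and none rose in SK-OV-3 cells, and 3 fell and 1 rose in WM793B cells. The shares of all genes that fell were 22.6%, 13.6% and 10.9%, and those that rose 13.3%, 11.5% and 8.50%. The SK-OV-3 count of falls and the PC-3 and WM793B counts of rises are near these shares. Among genes above 5 in the line, 42.3%, 26.8% and 20.7% fell and 26.0%, 21.1% and 16.5% rose. The WM793B count of falls is near its share among genes above 5. All counts stand on 12 genes and are not read as a result about the list. PAPOLA, the main poly(A) polymerase, rose by 0.71 ± 0.04 in PC-3 cells (limma adjusted p = 1.81e-05) and 0.71 ± 0.10 in WM793B cells (adjusted p = 0.00599) and fell by 0.44 ± 0.05 in SK-OV-3 cells (adjusted p = 0.00205). PABPN1, which binds the growing tail, rose by 0.81 ± 0.11 in PC-3 cells (adjusted p = 0.00131). In cycling hypoxia 2 fell and 2 rose in PC-3 cells, 2 fell in SK-OV-3 cells and none passed in WM793B cells. In the same order 13.2%, 7.89% and 2.99% of all genes fell and 11.1%, 8.53% and 3.43% rose. Among genes above 5, 25.0%, 15.3% and 5.51% fell and 22.6%, 16.6% and 6.88% rose. Their part in the histone values was not tested.

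Histone chaperones carry new histones to DNA. Of 23 measured, 16 fell and 3 rose in PC-3 cells (median -0.38), 9 fell and 1 rose in WM793B cells (-0.49), and 5 fell and 4 rose in SK-OV-3 cells (-0.01) in chronic hypoxia. Of all genes 10.9% fell and 8.50% rose in WM793B cells, and 13.6% fell and 11.5% rose in SK-OV-3 cells. The shares in PC-3 cells were 22.6% and 13.3%. Among genes above 5 in the line, 20.7%, 26.8% and 42.3% fell and 16.5%, 21.1% and 26.0% rose in that order. NASP, which holds the pool of soluble H3 and H4, fell in all 3 lines, with differences of -2.06 in WM793B, -0.42 in SK-OV-3 and -1.05 in PC-3 cells (limma adjusted p = 0.000378, 0.0106 and 1.27e-05). HAT1, which acetylates new H4, fell by 1.24 in PC-3 cells (adjusted p = 4.52e-06) and fell by 1.36 in WM793B cells (adjusted p = 0.00108). HJURP, the chaperone of the centromeric histone CENPA, rose by 1.53 in SK-OV-3 cells (adjusted p = 0.00285) and by 0.41 in PC-3 cells (adjusted p = 0.0058). In cycling hypoxia 11 fell and 1 rose in PC-3 cells, and 2 fell and 2 rose in SK-OV-3 cells. In WM793B cells 5 fell and 1 rose. Of all genes 13.2%, 7.89% and 2.99% fell and 11.1%, 8.53% and 3.43% rose in PC-3, SK-OV-3 and WM793B cells. Among genes above 5, 25.0%, 15.3% and 5.51% fell and 22.6%, 16.6% and 6.88% rose.

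The replacement histones, which are made outside S phase as well and from polyadenylated transcripts, showed few rises. In chronic hypoxia 4 of 9 measured fell and 1 rose in PC-3 cells, and 3 fell and none rose in SK-OV-3 cells. In WM793B cells 4 fell and none rose. Of all genes 22.6%, 13.6% and 10.9% fell and 13.3%, 11.5% and 8.50% rose in the same order. Among genes above 5 in the line, 42.3%, 26.8% and 20.7% fell and 26.0%, 21.1% and 16.5% rose. The PC-3 and SK-OV-3 counts of falls lie near those of genes above 5 and stand on 9 genes. H2AZ1, the main H2A.Z gene, fell by 0.37 in PC-3 cells (limma adjusted p = 0.000267) and fell by 0.65 in WM793B cells (adjusted p = 0.000985), and differed by 0.01 in SK-OV-3 cells. MACROH2A1, a large H2A variant of silent chromatin, fell in all 3 lines, with differences of -0.56, -0.78 and -0.46 in PC-3, SK-OV-3 and WM793B cells (adjusted p = 7.28e-05, 7.44e-05 and 0.000824). H1-10, a replacement linker histone, rose by 0.48 in PC-3 cells (adjusted p = 0.0442). In cycling hypoxia 1 fell in WM793B cells and 5 fell in PC-3 cells, while 2 fell and 2 rose in SK-OV-3 cells, against the same shares of all genes as given for the chaperones.

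**Figure D5:**
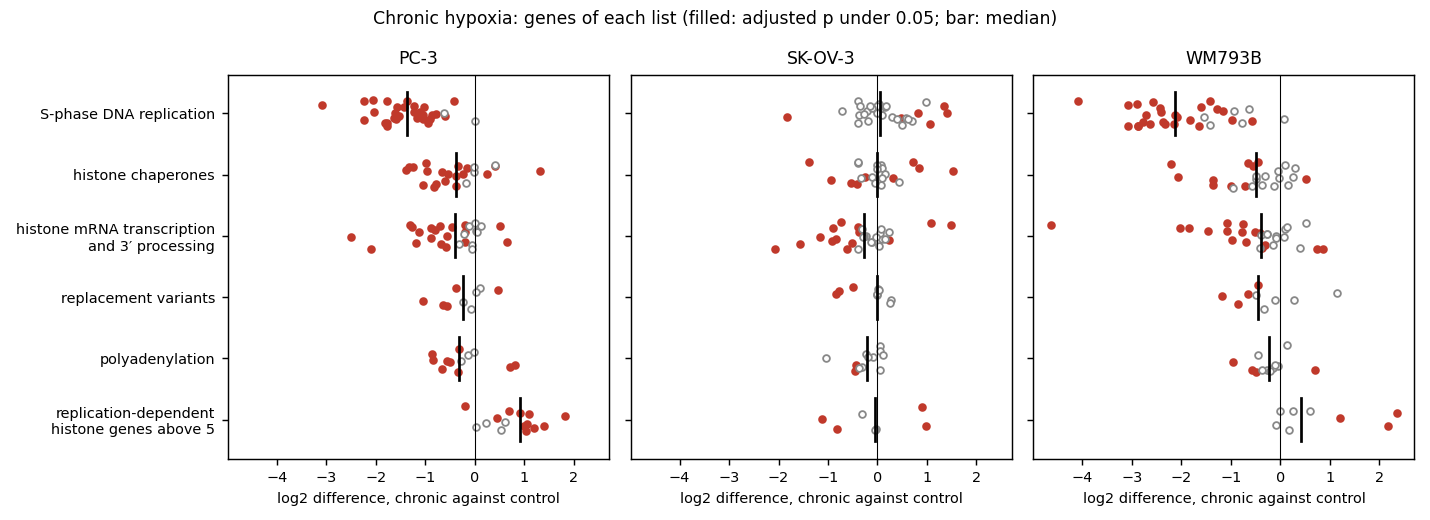
Log2 difference between chronic hypoxia and control (horizontal axis) for each gene of the lists (vertical axis) in the 3 cell lines, with filled points for an adjusted p under 0.05 and bars for medians. Vertical scatter within a list has no meaning. In PC-3 cells the median of the histone genes with a mean above 5 was 0.91 and that of the replication genes -1.36, and in SK-OV-3 cells they were -0.06 and 0.06.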

How the data were processed

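Total RNA was labelled and hybridized to Human Genome U133 Plus 2.0 arrays. GC-RMA was run by the authors. It removes background estimated from each probe's base content, brings the arrays to a common distribution and sums up every probe set, and the deposited values are log2. A constant low background value is thereby assigned to many probe sets, which have no order among them. The number of arrays limits the precision.

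Probe sets were named by the platform annotation: 41097 had 1 gene symbol, 1801 had several and 11777 had none, and only the first kind was used for single genes. For each gene the probe set with the highest mean over 27 arrays was used. Differences were tested with limma 3.58.1 in R 4.3.3 (lmFit and eBayes with an intensity trend), separately in each line over 9 arrays, and p-values were adjusted by Benjamini-Hochberg over all 54675 probe sets. Calls needed an adjusted p under 0.05. Line differences came from a moderated F-test over 27 arrays. The script was tested on simulated data.

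The genes described singly were above 5 in a group and called with at least a 2-fold change, or above 5 in all 9 groups (10 genes). The noise level is that of the study, read as a linear value because expression values beside it exceed what the log2 scale here can hold, while the stricter limit of 5 in log2 was set for this work. The variation filter (1.5-fold from the median in 20% of arrays), which kept 19800 probe sets, follows the methods of the study, whose random-variance test was replaced by limma. Members and gene lists were chosen with earlier results of these data known. Among the listed genes, POU2F1, NELFE, H3-3B, H3-5, MMS22L, WDR33 and CA9 had no probe set with a single symbol and were not analysed here. Promoter windows (first listed start) came from RefSeq, GRCh38.p14. Alternatives were the variation filter, no trend, quantile normalization again, median centring, dim probe sets left out, the mean of probe sets, no _x_at probe sets, 1 fit of 27 arrays, a replicate block, and leaving out each array.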

Additional observations from a re-analysis of the deposited data

Results flagged for a closer look

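Of the 10 genes described singly, 8 had chronic responses and 6 had cycling responses that were unequal in the 3 lines by the moderated F-test over 27 arrays. Most of the 10 had been chosen for a called change of at least 2-fold. Over all 42 histone genes 15 and 8 differed, beside 41.5% and 28.3% of all genes. For chronic hypoxia the adjusted p (limma) was 4.68e-09 for H2BC11, 2.26e-07 for H2AC25, 8.53e-07 for H2AC8, 2.03e-06 for H2AC6, 0.00505 for H2BC9, 0.00792 for H2BC5, 0.0145 for H2BC4 and 0.036 for H1-2. For cycling hypoxia it was 2.46e-05 for H2AC25, 4.61e-05 for H2AC8, 0.00114 for H2AC6, 0.00602 for H2BC11, 0.0271 for H2BC5 and 0.0324 for H1-2. H2BC11, H2AC8 and H2BC4 were below 5 (log2) in SK-OV-3 and WM793B cells, so their difference sets a change in PC-3 cells against lines where the gene was dim. The H1-2 differences were lost in 9 of 35 other settings for chronic and 7 of 35 for cycling hypoxia, and the H2BC5 difference for cycling hypoxia in 7 of 34.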

How the results depend on the processing

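No single-gene call changed its sign. Of these calls, 584 kept and 51 lost the threshold over all alternatives. The count of called histone genes moved by more than 1.5 times in these cases. With arrays centred on their medians, which shifts the many values at the floor, 23 genes were called in PC-3 chronic hypoxia, 14 higher and 9 lower (main 15, 13 and 2), 22 for PC-3 cycling against chronic, 8 and 14 (12, 1 and 11), and 17 for SK-OV-3 cycling against chronic, 13 and 4 (2, 0 and 2), where the balance of the count turned. Of the genes above 5 in the line, 11 were higher and 1 lower (main 10 and 1), 0 and 10 (0 and 9), and 0 and 3 (0 and 2). Without _x_at probe sets, which also leaves fewer genes, the PC-3 cycling counts were 5 against control (9) and 7 against chronic (12), and SK-OV-3 cycling against chronic gave 1. With all 27 arrays in 1 fit, SK-OV-3 cycling gave 6 against control (3) and 4 against chronic, and WM793B gave 6 for chronic (3), 2 for cycling against control (0) and 5 for cycling against chronic (0). Leaving out dim probe sets gave 6 for SK-OV-3 cycling against control, 1 for WM793B cycling against control and 3 against chronic. The variation filter gave 6 for SK-OV-3 cycling, 5 for WM793B chronic and 3 for WM793B cycling against chronic. These were out of 19 histone genes tested, where 5971, 7799 and 2882 of 19800 probe sets were called. Quantile normalization again gave 5 for SK-OV-3 cycling. The share of all probe sets called is not given for the other alternatives, so their counts have no background here. The cause of these shifts was otherwise not tested.

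Without 1 array, the counts ran from 14 to 16 (PC-3 chronic), 6 to 8 (PC-3 cycling), 9 to 13 (PC-3 cycling against chronic), 3 to 5 (SK-OV-3 chronic), 3 to 4 (SK-OV-3 cycling), 2 to 4 (SK-OV-3 cycling against chronic, 4 without cycling replicate 3), 1 to 6 (WM793B chronic, 6 without chronic replicate 3 and 1 without control replicate 2), 0 to 1 (WM793B cycling) and 0 to 5 (WM793B cycling against chronic, both highest without chronic replicate 3). The genes whose response differed between lines ran from 12 to 16 for chronic and 6 to 10 for cycling hypoxia. No share of all genes is given for these fits.

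The replicate numbers of the groups did not pair the samples: same-numbered arrays correlated over 0.1 in 1, 1 and 4 of 9 pairs in PC-3, SK-OV-3 and WM793B cells. With the replicate block, SK-OV-3 cycling against control gave 5 called genes in place of 3, and calls were lost for H2BC5 in SK-OV-3 chronic hypoxia (adjusted p = 0.0542), H2BC4 and H2BC9 in PC-3 cycling hypoxia (0.122 and 0.117) and H2AC6 in PC-3 cycling against chronic hypoxia (0.0958).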

Other observations

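A further 20 probe sets were annotated to several histone genes at once and could not be given to 1 gene. In PC-3 chronic hypoxia 10 of them rose and 1 fell, with a median log2 difference of 0.79, and in cycling hypoxia 6 rose and none fell, with a median of 0.08. In SK-OV-3 chronic hypoxia 3 rose and none fell, and in WM793B chronic hypoxia 1 rose and 1 fell, with medians of 0.03 and 0. In SK-OV-3 and WM793B cycling hypoxia none passed the limma test against control. Of all genes 13.3% rose and 22.6% fell in PC-3 chronic hypoxia, and 11.1% and 13.2% in PC-3 cycling hypoxia. The chronic shares were 11.5% and 13.6% in SK-OV-3 cells and 8.50% and 10.9% in WM793B cells. Their cycling shares were 8.53% and 7.89% in SK-OV-3 cells and 3.43% and 2.99% in WM793B cells.

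In 16 promoter windows of genes with a group mean above 5 (log2) the octamer was found in 9, and in the 23 windows of genes never above it in 7. The octamer stood only in H2A and H2B windows. These families had a larger part of their genes above 5 (4 of 8 and 8 of 14) than H1 (1 of 5), H3 (1 of 7) and H4 (3 of 8). The counts therefore do not separate family from level, and a link of the octamer with level was not tested. CCAAT was found in 13 of 16 and 21 of 23.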
